A study of Mus musculus with 35 samples.

Results

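The 8 genes described here encode the chains of the receptors through which immature blood cells read GM-CSF, IL-3, G-CSF, IL-6 and erythropoietin. They were chosen by name from the 49671 genes of the count table. *Csf2ra* encodes the chain that binds GM-CSF, *Csf2rb* the beta chain shared by the receptors for GM-CSF, IL-3 and IL-5, and *Csf2rb2* a second beta chain of the mouse that serves IL-3 only. *Il3ra* encodes the chain that binds IL-3, *Csf3r* the G-CSF receptor, *Il6ra* the chain that binds IL-6, *Il6st* its signalling partner gp130, and *Epor* the erythropoietin receptor. None of these receptors is itself an enzyme. Each carries kinases of the JAK family on its inner face, and ligand binding leads to phosphorylation of STAT proteins, mainly STAT5 for the GM-CSF, IL-3 and erythropoietin receptors and STAT3 for gp130. In bone marrow, *Csf3r* is best known from neutrophils and their precursors and *Epor* from erythroid precursors.

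RNA was sequenced from lineage-negative (lin-) hematopoietic stem and progenitor cells of bone marrow from C57Bl/6 mice, in 7 conditions of 5 libraries each. Cells received a lentivirus that carried no fusion (Empty) or 1 of 6 constructs of the leukemia fusion NUP98-HOXA9 tagged with mEGFP. G-NHX9 is the unmutated fusion. In G-NHX9-8FA phenylalanines of the FG motifs, the phenylalanine-glycine repeats of NUP98, were changed to alanine. In G-NHX9-21FGAA whole FG pairs were changed to alanines. G-NHX9-midi is a shortened fusion, G-NHX9-midi-21FGAA is its FG mutant, and in G-NHX9-DDNA the homeodomain was mutated to weaken its hold on DNA. The cells of every condition, Empty included, were sorted on mCherry, and with a construct also on mEGFP, before 1 week of culture in a methylcellulose medium (Methocult M3434) to which GM-CSF was added at 10 ng/mL. This medium is known to supply SCF, IL-3, IL-6 and erythropoietin as well. The age in the labels was 8 weeks for 32 libraries. It was 9 and 10 weeks for the Empty libraries numbered 4 and 5, and 11 weeks for the G-NHX9 library numbered 1. The constructs were driven from the viral vector and not from the *Nup98* locus, and the level of the transgene was not analysed here.

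Library totals ranged from 31559914 to 75810659 counts, and 17166 genes passed the filter on low counts, all 8 receptor genes among them. Levels are given as CPM, counts per 1000000 counts of the TMM-adjusted library size, with the SD over the 5 libraries of a condition. Libraries numbered 4 and 5 stood apart from those numbered 1 to 3 across conditions. The deviations of libraries from their condition mean had a mean correlation of 0.0501 between libraries of other numbers within these sets, 0.232 between libraries of the same number and -0.129 across the sets. Neither the labels nor the study's methods say what the number stands for, or whether the 5 libraries of a condition came from separate mice, so p-values measure the spread between these libraries only. Markers of mature cells were abundant in these cultures. The summed level of 11 macrophage markers ranged from 6272 to 44771 CPM over the libraries and that of 12 neutrophil markers from 5697 to 33960 CPM, against 298 to 903 CPM for 10 stem and progenitor markers and at most 3.24 CPM for 11 lymphoid markers. In such bulk samples fewer cells of a type and less RNA per cell cannot be told apart.

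By the GENCODE M21 annotation of GRCm38 (mm10), all 8 are protein-coding genes, and counts were taken over their exons. *Csf2rb* lies at chr15:78325752-78353847 on the plus strand and *Csf2rb2* at chr15:78282507-78305721 on the minus strand, back to back with 20030 bases between them. *Epor* lies at chr9:21958897-21963506 (minus), *Csf3r* at chr4:126024550-126044440 (plus), *Csf2ra* at chr19:61223957-61228429 (minus), *Il3ra* at chr14:14346275-14356011 (plus), *Il6ra* at chr3:89864059-89913196 (minus) and *Il6st* at chr13:112464070-112510086 (plus). The beta chain genes are close copies. Of the 100-base windows of the longest coding transcript of *Csf2rb2*, 7.2% occurred without a mismatch in a transcript of *Csf2rb*, and of the 150-base windows 3.59%. The labels and the study's methods differ on the read length. A read that lies in such a stretch cannot be assigned to either gene unless its mate can, and the counts of both carry that uncertainty. *Il3ra* and *Il6ra* each overlap an antisense gene, Gm48860 and Gm42809. The library kit kept strand, but whether counting used it was not given in the sources used here.

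Of the 8 genes, 7 had an entry in the RefSeq promoter table (GRCm38.p6), which covers 250 bases before and 50 after the start site, and *Csf2rb* had none. The stretches upstream of the start are printed for *Epor*, *Csf2rb2* and *Csf3r*, because the first pair had condition means that ran together across the 7 conditions and *Csf3r* ran the other way. That of *Csf3r* ends at the GENCODE start and leaves out the 109 bases before the RefSeq start. Each is read 5′ to 3′ on the strand of its gene, and capitals mark the letters AGATAA or TGATAA, a form of the site bound by GATA factors, on either strand.
Epor, chr9:21963577-21963826, minus strand: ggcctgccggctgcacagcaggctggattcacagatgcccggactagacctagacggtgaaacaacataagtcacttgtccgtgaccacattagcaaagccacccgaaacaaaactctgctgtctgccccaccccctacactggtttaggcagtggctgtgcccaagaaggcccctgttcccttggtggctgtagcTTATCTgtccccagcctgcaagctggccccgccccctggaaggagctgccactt
Csf2rb2, chr15:78305722-78305971, minus strand: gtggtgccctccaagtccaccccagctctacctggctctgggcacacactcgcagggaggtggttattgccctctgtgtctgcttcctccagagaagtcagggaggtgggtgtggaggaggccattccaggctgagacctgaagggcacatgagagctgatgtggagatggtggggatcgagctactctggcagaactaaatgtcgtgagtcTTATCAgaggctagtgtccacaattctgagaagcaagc
Csf3r, chr4:126024409-126024549, plus strand: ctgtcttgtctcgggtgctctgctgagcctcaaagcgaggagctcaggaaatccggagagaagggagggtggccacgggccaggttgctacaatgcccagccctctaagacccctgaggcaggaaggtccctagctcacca
The *Epor* and *Csf2rb2* stretches each held 1 match, both on the opposite strand, and the shorter *Csf3r* stretch held 0, as did its full window. Over the full windows *Il6ra* also had a match, which makes 3 of 7, and 18.6% of all 32851 promoter windows of this length held one. GAGGAA, the core of sites bound by PU.1, occurred in the windows of *Csf2ra*, *Csf2rb2*, *Csf3r* and *Il6ra* and in 28.3% of all windows. TTGCNNAA, the C/EBP letters, occurred in that of *Il3ra* and in 10.8% of all, and TTCNNNGAA, the STAT letters, in that of *Csf2rb2* and in 8.30% of all. Such matches describe the sequence and do not show that a factor was bound.

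Per kilobase of exon, *Csf2rb* was the most abundant of the 8 in every condition, from 138 CPM per kb in G-NHX9-midi to 233 in G-NHX9-midi-21FGAA. *Epor* was the least abundant in 5 conditions, at 0.208 CPM per kb in G-NHX9-midi, 0.422 in G-NHX9-8FA, 1.43 in G-NHX9, 1.70 in Empty and 2.52 in G-NHX9-DDNA. In G-NHX9-21FGAA and G-NHX9-midi-21FGAA, *Il6ra* was the least abundant, at 2.24 and 2.41 CPM per kb against 3.78 and 3.0 for *Epor*. When the 7 conditions were ordered by mean CPM for each gene, 46 of the 48 pairs of neighbours had overlapping libraries. The exceptions were *Csf3r*, with a gap between G-NHX9-midi and Empty, and *Epor*, with a gap between G-NHX9 and G-NHX9-8FA. The same count was not made over all genes tested, so how common such gaps are is not known here.

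**Figure D1:**
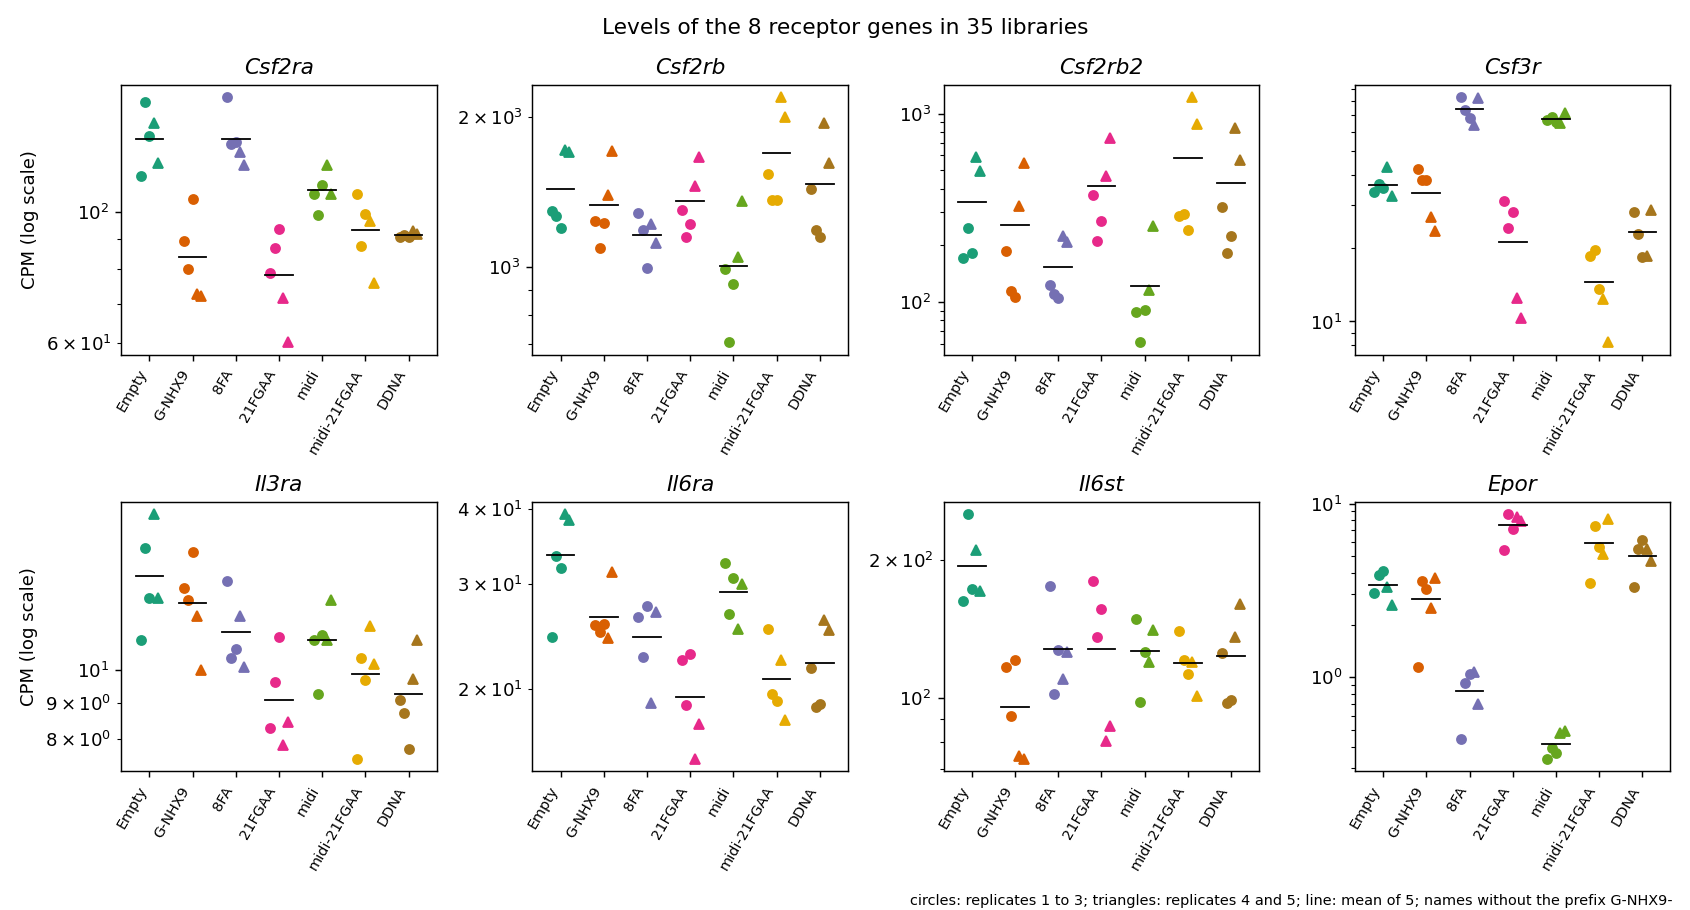
CPM (log axis) of the 8 receptor genes in the 35 libraries by condition, with circles for replicates 1 to 3, triangles for replicates 4 and 5 and a line at the mean. *Csf3r* is highest in G-NHX9-8FA and G-NHX9-midi (means 74.4 and 67.7 CPM), where *Epor* is lowest (0.838 and 0.415 CPM).

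The first question of the design was how each construct differed from Empty. In G-NHX9, 3 of the 8 receptor genes were lower and 0 higher, and over all genes tested 16.9% were higher and 15.2% lower. In G-NHX9-8FA and G-NHX9-midi 1 gene was higher, *Csf3r*, and 3 and 5 were lower, with *Epor* the most reduced. For G-NHX9-8FA 13.4% of all genes were higher and 13.2% lower, and for G-NHX9-midi 20.5% and 20.0%. In G-NHX9-21FGAA and G-NHX9-midi-21FGAA 1 gene was higher, *Epor*, and 5 were lower, *Csf3r* among them. The shares over all genes were 14.7% higher and 12.5% lower for G-NHX9-21FGAA and 9.59% and 7.32% for G-NHX9-midi-21FGAA. In G-NHX9-DDNA 0 were higher and 5 lower, and 9.85% of all genes were higher and 7.35% lower. At an unadjusted p under 0.05, 0 genes were higher in G-NHX9 and 1, *Epor*, in G-NHX9-DDNA, and DESeq2 called 0 higher in either. With the replicate number as a block, which applies to these comparisons, 1 gene was higher and 5 lower in G-NHX9-DDNA. In G-NHX9-midi-21FGAA 2 were then higher and 5 lower, and in G-NHX9 0 and 3. The median log2 fold change of the 8 was -0.30 for G-NHX9, -0.38 for G-NHX9-8FA, -0.41 for G-NHX9-midi, -0.59 for G-NHX9-21FGAA, -0.48 for G-NHX9-midi-21FGAA and -0.54 for G-NHX9-DDNA, while the median of all genes tested was between -0.02 and 0.03. These 6 comparisons share the same Empty libraries. Adjusted p-values throughout come from the quasi-likelihood test of edgeR, with the Benjamini-Hochberg method applied over the 17166 genes.

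**Figure D2:**
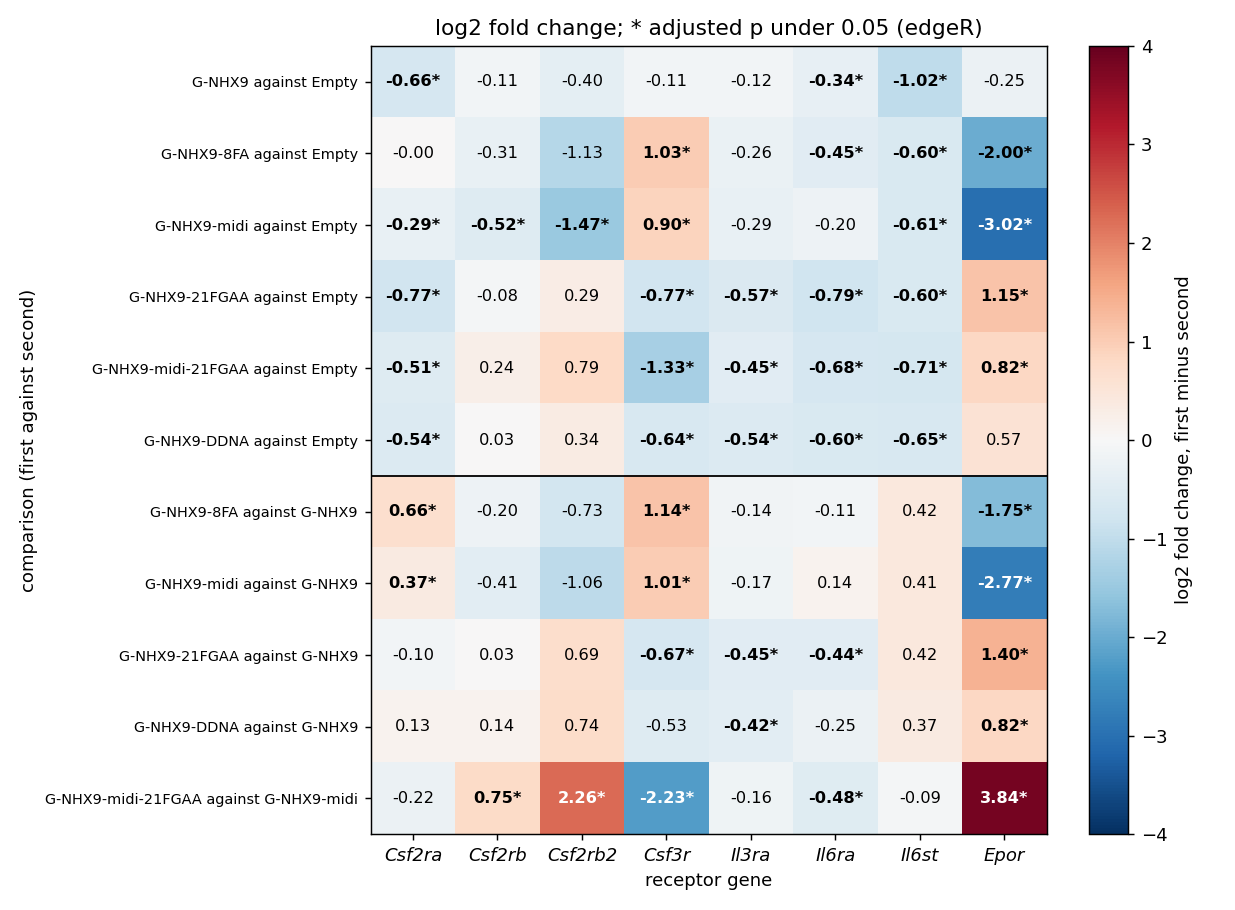
Log2 fold change of each receptor gene (columns) in the 11 comparisons (rows, first condition against second), with an asterisk where the adjusted p was under 0.05. *Epor* and *Csf3r* have opposite signs in 10 of the 11 rows, and *Il6st* is below Empty in all 6 of the upper rows.

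*Epor* showed the widest differences of the group. Erythropoietin acts through this receptor to keep erythroid precursors alive. In Empty the libraries had 3.05, 3.86, 4.07, 3.32 and 2.60 CPM (3.38 ± 0.596, SD, n = 5). In G-NHX9-midi they had 0.339, 0.390, 0.368, 0.481 and 0.494 CPM, and in G-NHX9-8FA 0.443, 0.933, 1.04, 1.08 and 0.703 CPM. All 10 of these libraries were below all of Empty. The gene was 8.13-fold lower in G-NHX9-midi (log2 -3.02, SE 0.28, adjusted p = 3.6e-10) and 4.01-fold lower in G-NHX9-8FA (log2 -2.0, SE 0.26, adjusted p = 6.6e-07). In G-NHX9-21FGAA the libraries had 5.40, 8.72, 7.16, 8.38 and 7.95 CPM, all above Empty (log2 1.15, SE 0.24, adjusted p = 0.00067). In G-NHX9-midi-21FGAA they had 3.47, 7.39, 5.62, 5.15 and 8.17 CPM, of which 4 were above all of Empty (log2 0.82, SE 0.24, adjusted p = 0.018). Both increases missed the threshold when only replicates 1 to 3 were fitted (log2 0.98, adjusted p = 0.07, and log2 0.61, adjusted p = 0.32), and the second also missed it without replicate 5 of G-NHX9-midi-21FGAA. G-NHX9-DDNA, at 3.33, 5.50, 6.19, 5.44 and 4.64 CPM, did not pass (log2 0.57, SE 0.24, adjusted p = 0.10), but did with the replicate number as a block, which applies to this comparison (log2 0.54, adjusted p = 0.022). G-NHX9 overlapped Empty, with 1.14, 3.58, 3.22, 2.52 and 3.72 CPM (log2 -0.25, SE 0.25, adjusted p = 0.48).

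Markers of erythroid cells moved with *Epor*. The 14 markers, *Epor* not among them, summed to 320 to 869 CPM in Empty and 300 to 784 in G-NHX9, to 117 to 159 in G-NHX9-8FA and 143 to 202 in G-NHX9-midi, and to 592 to 2180 in G-NHX9-21FGAA, 737 to 1930 in G-NHX9-midi-21FGAA and 659 to 2051 in G-NHX9-DDNA. Against Empty, 13 of the 14 were lower in G-NHX9-8FA and 12 in G-NHX9-midi, whereas 9 were higher in G-NHX9-21FGAA, 12 in G-NHX9-midi-21FGAA and 7 in G-NHX9-DDNA (8 with the replicate block). For G-NHX9 0 of 14 passed with edgeR (1 at an unadjusted p under 0.05) or DESeq2, and 1, which was lower, with the block. Their part in the *Epor* differences was not tested. Of the genes that averaged 5 CPM or more, the pattern most like that of *Epor* over the 35 libraries was that of *Gata1*, which encodes the main transcription factor of erythroid cells and is itself one of the markers (Pearson r = 0.976 of log2 CPM), followed by *Mfsd2b* (r = 0.975). These points share conditions and library depth, so the correlations are descriptions.

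*Csf3r* ran the other way. G-CSF, its ligand, drives neutrophil production and is not named in the growth medium. Empty had 34.0, 36.7, 35.4, 42.9 and 32.6 CPM (36.3 ± 3.98, SD, n = 5). G-NHX9-8FA had 83.1, 73.6, 68.2, 64.1 and 82.7 CPM, and G-NHX9-midi 66.8, 68.8, 65.7, 65.3 and 71.8 CPM. All 10 were above the highest Empty library, a 2.05-fold (log2 1.03, SE 0.23, adjusted p = 0.00079) and a 1.86-fold (log2 0.90, SE 0.23, adjusted p = 0.0018) increase. G-NHX9-midi-21FGAA had 18.5, 19.6, 13.6, 12.4 and 8.21 CPM, 2.52-fold lower (log2 -1.33, SE 0.23, adjusted p = 0.00046). G-NHX9-21FGAA had 31.3, 24.2, 28.0, 12.5 and 10.3 CPM (log2 -0.77, SE 0.23, adjusted p = 0.011). G-NHX9-DDNA had 28.1, 22.8, 18.4, 18.6 and 28.7 CPM (log2 -0.64, SE 0.23, adjusted p = 0.047). All libraries of these 3 conditions were below all of Empty. The decrease in G-NHX9-21FGAA was -0.32 on the log2 scale in replicates 1 to 3 (adjusted p = 0.13) and -1.71 in replicates 4 and 5 (adjusted p = 0.00061), and it was also lost without replicate 5 of G-NHX9-21FGAA. That in G-NHX9-DDNA was lost on leaving out any 1 Empty library or replicate 2, 3 or 4 of its own. G-NHX9 did not pass (log2 -0.11, 95% interval from -0.55 to 0.33, adjusted p = 0.76), with 42.2, 37.9, 38.2, 26.7 and 23.6 CPM.

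The summed level of the 12 neutrophil markers, which do not include *Csf3r*, was 9028 to 12928 CPM in Empty, 15307 to 33960 in G-NHX9-8FA and 10253 to 21831 in G-NHX9-midi. *S100a8* and *S100a9* made up most of this sum, with means of 3090 and 4013 CPM in Empty, 8415 and 10866 in G-NHX9-8FA and 5742 and 7842 in G-NHX9-midi. *Ltf*, *Camp* and *Mmp8* had lower means in G-NHX9-midi (351, 55 and 818 CPM) than in Empty (807, 137 and 1801 CPM). The sum was 11603 to 20229 CPM in G-NHX9-DDNA, where *Csf3r* was lower, so the marker sum and the receptor did not run together in every condition. Of the 12 markers, 7 were higher and 0 lower in G-NHX9-8FA, 4 higher and 3 lower in G-NHX9-midi, 3 higher and 2 lower in G-NHX9-DDNA, 1 higher and 2 lower in G-NHX9-21FGAA, 0 higher and 2 lower in G-NHX9-midi-21FGAA, and 1 higher and 3 lower in G-NHX9. Their part in the *Csf3r* differences was not tested. The genes most like *Csf3r* over the 35 libraries were *Lamb3*, a laminin chain (r = 0.957), and *Acpp*, an acid phosphatase (r = 0.955). Per kilobase within each library, the ratio of *Csf3r* to *Epor* had a median of 6.15 in Empty, 5.84 in G-NHX9 (3.5 to 20.4 over its libraries), 43.5 in G-NHX9-8FA and 97.3 in G-NHX9-midi. The median was 2.29 in G-NHX9-DDNA, 1.53 in G-NHX9-21FGAA (0.712 to 3.19) and 1.34 in G-NHX9-midi-21FGAA (0.554 to 2.94). *Epor* thus exceeded *Csf3r* in some libraries of G-NHX9-21FGAA and G-NHX9-midi-21FGAA.

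**Figure D3:**
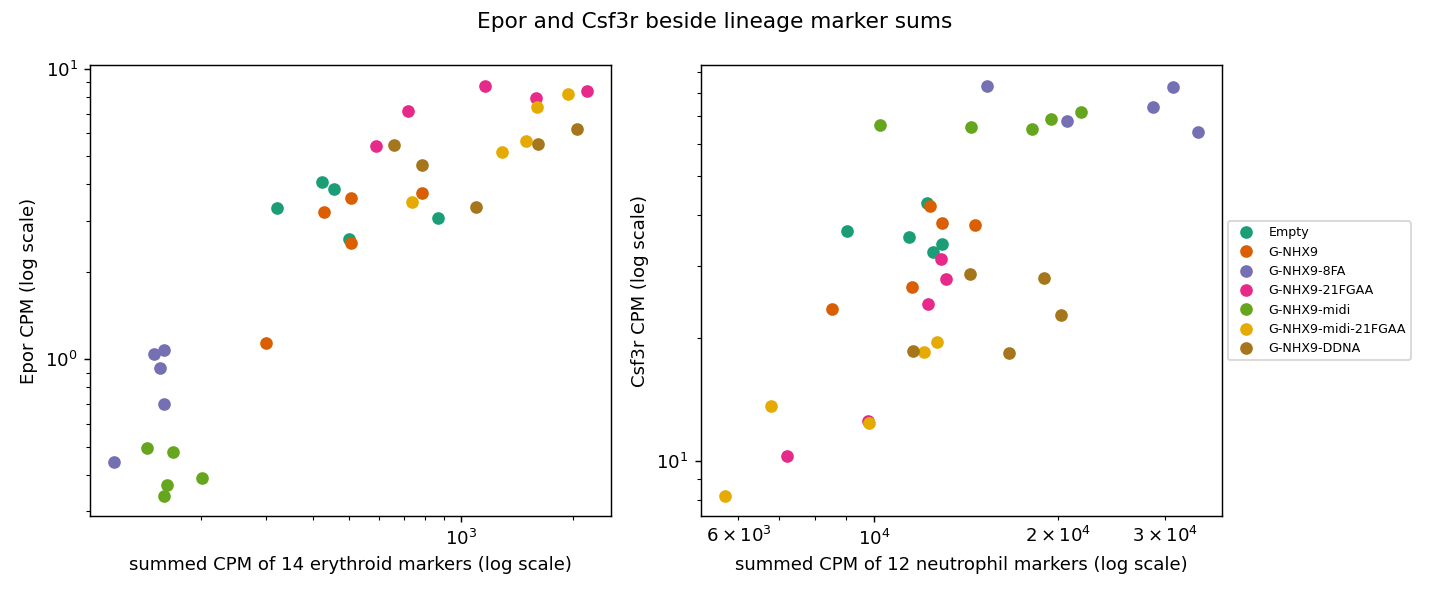
*Epor* CPM against the summed CPM of 14 erythroid markers (left) and *Csf3r* CPM against that of 12 neutrophil markers (right), 1 point per library coloured by condition, all axes logarithmic. G-NHX9-8FA and G-NHX9-midi sit at the lower left for *Epor* (sums of 117 to 202 CPM), and for *Csf3r* the G-NHX9-DDNA libraries have sums of 11603 to 20229 CPM with 18.4 to 28.7 CPM of the receptor. *S100a8* and *S100a9* make up most of the neutrophil sum.

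*Csf2ra*, whose product binds the GM-CSF added to these cultures, was lower than Empty in 5 of the 6 constructs. Empty had 115, 153, 134, 141 and 121 CPM (133 ± 15.5, SD, n = 5), and G-NHX9 had 89.1, 80.1, 105, 72.7 and 72.0 CPM. All 5 G-NHX9 libraries were below all of Empty, a 1.58-fold decrease (log2 -0.66, SE 0.11, adjusted p = 1.7e-05). The decreases were 1.70-fold in G-NHX9-21FGAA (60.2 to 93.5 CPM, adjusted p = 8.8e-06), 1.45-fold in G-NHX9-DDNA (90.7 to 92.8 CPM, adjusted p = 0.0015), 1.42-fold in G-NHX9-midi-21FGAA (75.9 to 107 CPM, adjusted p = 0.0021) and 1.22-fold in G-NHX9-midi (98.7 to 120 CPM, adjusted p = 0.033). The call in G-NHX9-midi was lost on leaving out replicate 2 or 4 of Empty or replicate 1, 2, 3 or 5 of its own. G-NHX9-8FA overlapped Empty, with 156, 130, 131, 126 and 120 CPM (133 ± 13.7, SD, n = 5, adjusted p = 0.99). The gene most like *Csf2ra* over the 35 libraries was *Spi1*, which encodes the myeloid transcription factor PU.1 (r = 0.925), followed by *Adipor1*, an adiponectin receptor (r = 0.913).

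The beta chains varied with the replicate number as well as with the condition. *Csf2rb2* had 172, 246 and 183 CPM in replicates 1 to 3 of Empty and 590 and 498 CPM in replicates 4 and 5. In all 7 conditions replicates 4 and 5 were both above replicates 1 to 3, by 0.94 to 1.94 (median 1.44) on the log2 scale of the means. The widest gap was in G-NHX9-midi-21FGAA, with 288, 293 and 242 CPM in replicates 1 to 3 and 1222 and 877 CPM in replicates 4 and 5. *Csf2rb* showed the same order in 6 of 7 conditions, by 0.35 to 0.56, and in G-NHX9-8FA the sets overlapped. Of the counts of both genes, *Csf2rb2* took 11.7%, 16.2%, 13.2%, 25.6% and 22.6% in the Empty libraries, 8.24% to 15.8% in G-NHX9-midi and 15.1% to 35.8% in G-NHX9-midi-21FGAA. The genes most like *Csf2rb2* were *Slc7a8*, an amino acid transporter (r = 0.973), and *Tram2* (r = 0.958), and those most like *Csf2rb* were *Pi4ka*, a lipid kinase (r = 0.926), and *Anpep*, the aminopeptidase CD13 (r = 0.921).

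**Figure D4:**
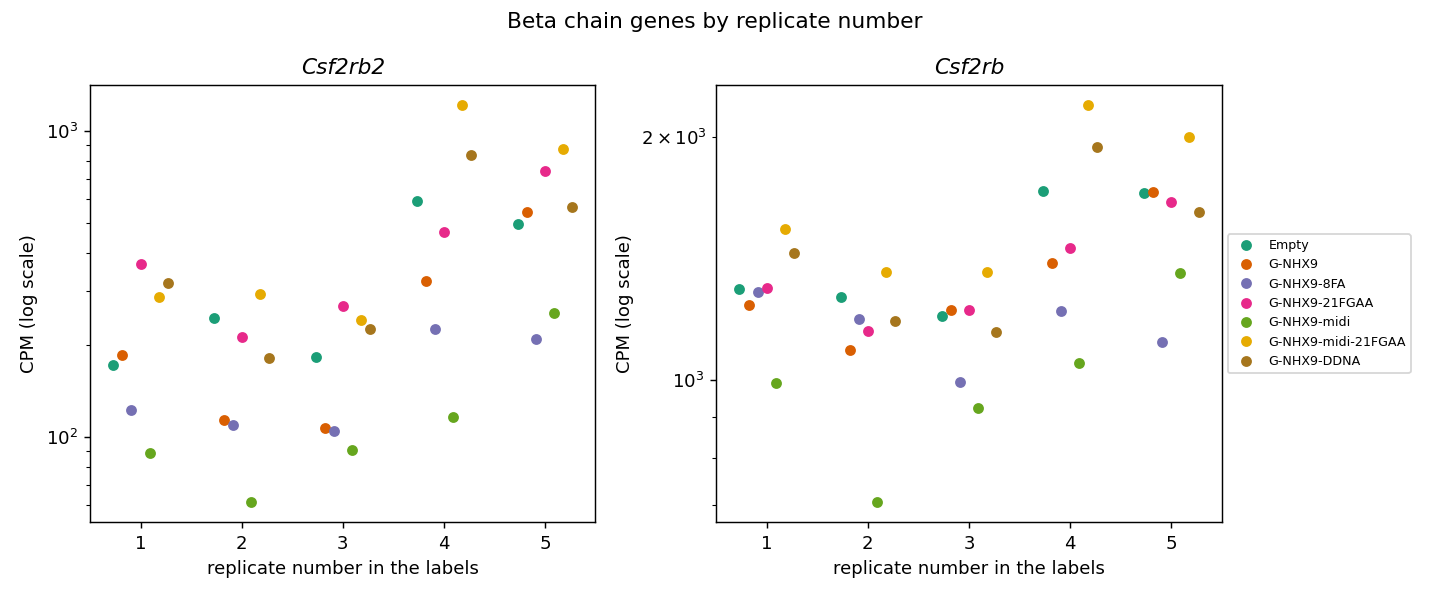
CPM (log axis) of *Csf2rb2* (left) and *Csf2rb* (right) by the replicate number of the labels, coloured by condition and set side by side within a number. For *Csf2rb2* replicates 4 and 5 are above replicates 1 to 3 in each of the 7 conditions, and G-NHX9-midi (61.2 to 254 CPM) holds the lowest point in replicates 1 to 4.

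Against Empty, the beta chains passed the threshold in G-NHX9-midi and, without the block, in none of the other 5 constructs. *Csf2rb* had 991, 705, 924, 1049 and 1358 CPM there against 1297, 1268, 1200, 1718 and 1706 CPM in Empty (log2 -0.52, SE 0.17, adjusted p = 0.013), a call lost without replicate 2 of G-NHX9-midi. *Csf2rb2* had 89.0, 61.2, 90.5, 116 and 254 CPM (log2 -1.47, SE 0.52, adjusted p = 0.023). This second decrease was -1.30 in replicates 1 to 3 (adjusted p = 0.00027) and -1.56 in replicates 4 and 5 (adjusted p = 0.0079), although it was lost on leaving out replicate 4 or 5 of Empty or replicate 1, 2 or 3 of G-NHX9-midi from the fit to all libraries. In G-NHX9-8FA *Csf2rb2* did not pass (log2 -1.13, SE 0.52, adjusted p = 0.11). It did in replicates 1 to 3 alone (log2 -0.83, adjusted p = 0.02) and in replicates 4 and 5 alone (log2 -1.32, adjusted p = 0.021). It also passed with the replicate block (log2 -1.03, adjusted p = 0.00046), although this comparison missed the limit on pairing given below. In G-NHX9-midi-21FGAA *Csf2rb2* did not pass (log2 0.79, SE 0.51, adjusted p = 0.31) but did with the replicate block (log2 0.66, adjusted p = 0.023). For *Csf2rb* the 95% interval of the log2 difference from Empty ran from -0.44 to 0.22 in G-NHX9. Per kilobase, *Csf2rb* exceeded *Csf2ra* 4.32-fold ± 0.942 in Empty, 3.47-fold ± 0.337 in G-NHX9-8FA, 3.65-fold ± 0.833 in G-NHX9-midi, 6.48-fold ± 1.96 in G-NHX9 and 7.17-fold ± 2.40 in G-NHX9-21FGAA (SD, n = 5 each).

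*Il6st* was the only one of the 8 that passed in all 6 constructs, and it was lower in each. gp130, its product, also serves the receptors for IL-11, LIF and oncostatin M. Empty had 163, 252, 173, 210 and 171 CPM (194 ± 37.1, SD, n = 5), and G-NHX9 had 117, 91.5, 121, 74.8 and 73.6 CPM. The G-NHX9 libraries were all below Empty, a 2.03-fold decrease (log2 -1.02, SE 0.19, adjusted p = 0.00012). In the other 5 constructs the mean was 119 to 128 CPM and the decrease 1.51-fold to 1.63-fold, with adjusted p from 0.011 to 0.02. The decrease in G-NHX9-21FGAA was -0.29 on the log2 scale in replicates 1 to 3 (adjusted p = 0.37) and -1.16 in replicates 4 and 5 (adjusted p = 0.00041). In G-NHX9-DDNA it was -0.85 (adjusted p = 0.0054) and -0.35 (adjusted p = 0.31). The calls in G-NHX9-8FA and G-NHX9-midi-21FGAA also missed the threshold in replicates 1 to 3 alone (adjusted p = 0.068 and 0.056). The 3 calls in G-NHX9-8FA, G-NHX9-21FGAA and G-NHX9-DDNA were each lost without Empty replicate 2, the highest library, and also without replicate 2 of G-NHX9-8FA, replicate 4 or 5 of G-NHX9-21FGAA, or replicate 2 or 3 of G-NHX9-DDNA. The genes most like *Il6st* were *Enpp1* (r = 0.896) and *Ipmk* (r = 0.895).

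*Il6ra* passed in 5 constructs and was lower in each. It had 24.4, 33.4, 31.8, 39.2 and 38.3 CPM in Empty (33.4 ± 5.96, SD, n = 5) and 22.4, 18.8, 22.9, 15.3 and 17.5 CPM in G-NHX9-21FGAA, all below Empty (log2 -0.79, SE 0.13, adjusted p = 7.2e-05). The decreases were 1.61-fold in G-NHX9-midi-21FGAA (adjusted p = 0.0011), 1.51-fold in G-NHX9-DDNA (adjusted p = 0.0028), 1.37-fold in G-NHX9-8FA (adjusted p = 0.011) and 1.27-fold in G-NHX9 (adjusted p = 0.046). The last was lost on leaving out replicate 2, 3, 4 or 5 of Empty or replicate 1, 2, 3 or 4 of G-NHX9. G-NHX9-midi, at 25.2 to 32.5 CPM, did not pass (log2 -0.20, SE 0.13, adjusted p = 0.23). The genes most like it were *Arf4* (r = 0.836) and *Tnfrsf1a*, a TNF receptor (r = 0.831).

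*Il3ra* was lower in the 3 constructs in which *Csf3r* was lower too. It had 11.0, 14.8, 12.6, 16.5 and 12.6 CPM in Empty (13.5 ± 2.14, SD, n = 5). G-NHX9-21FGAA had 8.29, 9.63, 11.1, 7.86 and 8.45 CPM (log2 -0.57, SE 0.13, adjusted p = 0.001), G-NHX9-DDNA 7.76 to 11.0 CPM (log2 -0.54, SE 0.13, adjusted p = 0.0038) and G-NHX9-midi-21FGAA 7.51 to 11.5 CPM (log2 -0.45, SE 0.13, adjusted p = 0.014). In each of the 3, 4 of 5 libraries were below all of Empty. The call in G-NHX9-midi-21FGAA was lost without replicate 4 of Empty, without scaling, without the filter and in a fit to the 2 conditions. It was also lost in replicates 1 to 3 (adjusted p = 0.064) and in replicates 4 and 5 (adjusted p = 0.15). That in G-NHX9-21FGAA was lost in replicates 1 to 3 (adjusted p = 0.088) and that in G-NHX9-DDNA in replicates 4 and 5 (adjusted p = 0.23). The means of G-NHX9, G-NHX9-8FA and G-NHX9-midi were 12.4, 11.3 and 11.0 CPM, and none of these passed (adjusted p from 0.062 to 0.51). The genes most like it were *B3galt4* (r = 0.804) and *Myo1c* (r = 0.773).

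The second question was what each change to the fusion did relative to its unmutated parent. Against G-NHX9, G-NHX9-8FA had 2 of the 8 genes higher and 1 lower (6.43% of all genes higher and 8.04% lower). G-NHX9-midi also had 2 higher and 1 lower (8.50% and 11.2%), G-NHX9-21FGAA 1 higher and 3 lower (8.91% and 8.34%), and G-NHX9-DDNA 1 higher and 1 lower (10.7% and 11.4%). With the replicate block, G-NHX9-21FGAA had 2 higher and 3 lower and G-NHX9-DDNA 2 higher and 1 lower. Against G-NHX9-midi, G-NHX9-midi-21FGAA had 3 higher and 2 lower (21.0% and 22.2%). *Epor* passed in all 5 of these comparisons and *Csf3r* in 4. The 4 comparisons with G-NHX9 share its libraries.

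Against G-NHX9, *Epor* was 3.37-fold lower in G-NHX9-8FA (log2 -1.75, SE 0.26, adjusted p = 1.8e-05) and 6.83-fold lower in G-NHX9-midi (log2 -2.77, SE 0.28, adjusted p = 1.1e-08), with all 5 libraries of each below all of G-NHX9. It was 2.65-fold higher in G-NHX9-21FGAA (log2 1.40, SE 0.24, adjusted p = 6.5e-05) and 1.77-fold higher in G-NHX9-DDNA (log2 0.82, SE 0.24, adjusted p = 0.013), where 5 and 4 libraries were above all of G-NHX9. The increase in G-NHX9-DDNA missed the threshold in a fit to these 2 conditions, in replicates 1 to 3 (log2 0.93, adjusted p = 0.072) and in replicates 4 and 5 (log2 0.69, adjusted p = 0.13). *Csf3r* was 2.21-fold higher in G-NHX9-8FA (adjusted p = 0.00068) and 2.01-fold higher in G-NHX9-midi (adjusted p = 0.0015), again without overlap. Its 1.59-fold decrease in G-NHX9-21FGAA (adjusted p = 0.038) left 2 of 5 libraries below all of G-NHX9 and was lost on leaving out replicate 1, 2 or 3 of G-NHX9 or replicate 2, 4 or 5 of G-NHX9-21FGAA. *Csf2ra* was 1.58-fold higher in G-NHX9-8FA (adjusted p = 6.8e-05) and 1.30-fold higher in G-NHX9-midi (adjusted p = 0.014). *Il3ra* was 1.37-fold lower in G-NHX9-21FGAA (adjusted p = 0.01) and 1.34-fold lower in G-NHX9-DDNA (adjusted p = 0.014), the latter lost without replicate 3 of G-NHX9 or of G-NHX9-DDNA. *Il6ra* was 1.36-fold lower in G-NHX9-21FGAA (adjusted p = 0.017), a call lost without replicate 5 of G-NHX9 or replicate 2, 4 or 5 of G-NHX9-21FGAA. *Il6st* was 1.29-fold to 1.34-fold above G-NHX9 in the 4 constructs and passed in none (adjusted p from 0.14 to 0.18). In replicates 1 to 3 alone it passed in none either (log2 -0.02 to 0.54, adjusted p from 0.072 to 0.97). In replicates 4 and 5 alone it passed in G-NHX9-8FA (log2 0.66, adjusted p = 0.017), G-NHX9-midi (log2 0.80, adjusted p = 0.006) and G-NHX9-DDNA (log2 1.00, adjusted p = 0.0012). It did not in G-NHX9-21FGAA (log2 0.19, adjusted p = 0.49).

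*Csf2rb2* did not pass in G-NHX9-21FGAA (log2 0.69, SE 0.51, adjusted p = 0.43) or G-NHX9-DDNA (log2 0.74, SE 0.51, adjusted p = 0.35) against G-NHX9. With the replicate block, which applies to both comparisons, the values were 0.83 (adjusted p = 0.0047) and 0.79 (adjusted p = 0.0063).

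The FG mutation of the shortened fusion gave the largest differences among these 11 comparisons for *Epor*, *Csf3r* and both beta chains. From G-NHX9-midi to G-NHX9-midi-21FGAA, *Epor* rose 14.3-fold (log2 3.84, SE 0.29, adjusted p = 1.6e-12) and *Csf3r* fell 4.68-fold (log2 -2.23, SE 0.24, adjusted p = 2.5e-09), both without overlap. *Csf2rb* rose 1.68-fold (log2 0.75, SE 0.17, adjusted p = 0.00046), with 1541, 1363, 1362, 2195 and 2000 CPM against 705 to 1358 CPM. *Csf2rb2* rose 4.79-fold (log2 2.26, SE 0.53, adjusted p = 0.00082), and the difference was 1.78 in replicates 1 to 3 (adjusted p = 1.1e-05) and 2.53 in replicates 4 and 5 (adjusted p = 0.00042). *Il6ra* fell 1.40-fold (log2 -0.48, SE 0.13, adjusted p = 0.0037), with all 5 libraries below those of G-NHX9-midi. All 14 erythroid markers were higher in the same comparison, 2 of the 12 neutrophil markers were higher and 6 lower, and all 12 mast cell and basophil markers were higher, with summed levels of 2945 to 6837 CPM in G-NHX9-midi-21FGAA and 499 to 934 CPM in G-NHX9-midi. The part of these cells in the receptor differences was not tested.

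Over the 7 condition means of log2 CPM, which include the conditions of the tests above, *Csf2rb2* ran with *Epor* (r = 0.97) and *Csf2rb* (r = 0.94) and against *Csf3r* (r = -0.95), and *Csf3r* ran against *Epor* (r = -0.93). *Il3ra* ran with *Il6ra* (r = 0.90), and *Il6st* had r between 0.00 and 0.69 with the other 7. These are descriptions over 7 points. Other lineages that use the beta chains varied as well. The sum of 12 mast cell and basophil markers was 1438 to 3848 CPM in Empty, 716 to 1036 in G-NHX9, 655 to 991 in G-NHX9-8FA, 3996 to 5699 in G-NHX9-21FGAA and 2992 to 4525 in G-NHX9-DDNA. Against Empty 8 of the 12 were lower in G-NHX9, 9 in G-NHX9-8FA and 10 in G-NHX9-midi, and 5, 6 and 2 were higher in G-NHX9-21FGAA, G-NHX9-midi-21FGAA and G-NHX9-DDNA. Of those that averaged 5 CPM or more, the most reduced in G-NHX9 were the proteases *Mcpt4* (log2 -3.84, adjusted p = 1.6e-07), *Cma1* (log2 -3.56, adjusted p = 1.8e-09) and *Tpsb2* (log2 -3.36, adjusted p = 3.1e-08). The tryptase gene *Tpsab1*, less abundant, was lower still (6.92 CPM in Empty and 0.32 in G-NHX9, log2 -4.42, adjusted p = 1.9e-08). The sum of 8 eosinophil markers was 1388 to 1927 CPM in Empty, 285 to 1033 in G-NHX9, 77.1 to 298 in G-NHX9-8FA and 44.1 to 128 in G-NHX9-midi, with 4 (6 with the replicate block), 7 and 7 of the 8 lower. In G-NHX9-midi the eighth, *Ccr3*, was higher (log2 1.21, adjusted p = 0.0017). In G-NHX9-21FGAA, G-NHX9-midi-21FGAA and G-NHX9-DDNA it was 1565 to 2500, 828 to 2368 and 1607 to 2690 CPM, with 0 of 8 lower in each. Their part in the beta chain levels was not tested.

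The remaining marker groups differed too. Of 11 macrophage markers, 3 were higher and 5 lower in G-NHX9, with *Lyz2*, lysozyme, at a log2 fold change of -1.75 (adjusted p = 9.7e-07), and 7 were lower and 1 higher in G-NHX9-midi. The 3 that were higher in G-NHX9 were the complement genes *C1qa*, *C1qb* and *C1qc*, at low levels: *C1qb* had 0.62 CPM in Empty and 5.33 in G-NHX9 (log2 3.09, SE 0.39, adjusted p = 2e-07). The sum of the 11 macrophage markers was 32605 to 44771 CPM in Empty. The highest library of any construct had 27636 CPM, in G-NHX9-midi-21FGAA, where 2 of the 11 were lower and 0 higher. The part of these cells in the receptor differences from Empty was not tested. Of 8 megakaryocyte markers, 4 were lower in G-NHX9 (7 with the replicate block), 8 in G-NHX9-8FA and 8 in G-NHX9-midi. Of 5 early granule genes, 4 were higher in G-NHX9, 4 in G-NHX9-8FA, 3 in G-NHX9-midi, 5 in G-NHX9-21FGAA, 5 in G-NHX9-DDNA and 0 in G-NHX9-midi-21FGAA. *Ctsg*, cathepsin G, had a log2 fold change of 2.39 in G-NHX9 (adjusted p = 1.6e-07). Of 10 stem and progenitor genes, 6 were higher and 1 lower in G-NHX9, with *Cd34* at 2.57 (adjusted p = 3.5e-12). Of 11 lymphoid markers 3 passed the filter, and 0 of these passed the edgeR test in G-NHX9.

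Of 13 genes for ligands of these and related receptors, 8 passed the filter. *Epo* had 0 counts in all 35 libraries, which allows up to 3 counts in each, and *Csf3* had 0 to 20 counts. Against Empty, 1 ligand gene was higher and 1 lower in G-NHX9 (5 lower with the replicate block), 1 and 1 in G-NHX9-8FA, 1 and 2 in G-NHX9-midi, and 2 and 2 in G-NHX9-21FGAA. In G-NHX9-midi-21FGAA and G-NHX9-DDNA 0 of the 8 passed with edgeR or DESeq2, and at an unadjusted p under 0.05 there were 0 and 3. With the replicate block 1, *Il3*, was higher in G-NHX9-DDNA. *Csf2*, the gene for GM-CSF, was low in every condition, at 1.13 CPM ± 0.423 in Empty and 0.186 CPM ± 0.131 in G-NHX9 (SD, n = 5 each). All 5 G-NHX9 libraries were below all of Empty (log2 -2.63, SE 0.42, adjusted p = 1.1e-05). The gene was higher than in G-NHX9 in G-NHX9-21FGAA (log2 2.72, SE 0.42, adjusted p = 1e-05) and G-NHX9-DDNA (log2 2.66, SE 0.42, adjusted p = 1.3e-05). The other constructs were above the highest G-NHX9 library (0.389 CPM) as well. *Csf2* had 0.489 to 1.1 CPM in G-NHX9-8FA, 0.409 to 0.936 in G-NHX9-midi and 0.45 to 1.72 in G-NHX9-midi-21FGAA. *Il3* held at most 9 counts in any Empty library and 1 in any G-NHX9 library, and up to 52 in G-NHX9-21FGAA, 70 in G-NHX9-midi-21FGAA and 20 in G-NHX9-DDNA. It was higher than Empty in G-NHX9-21FGAA (0.507 against 0.101 CPM, log2 2.26, SE 0.72, adjusted p = 0.018). In G-NHX9 and G-NHX9-DDNA it passed with the replicate block alone (adjusted p = 0.04, lower, and 0.045, higher). *Il6* varied within conditions, at 19.3 to 79.3 CPM in Empty, and passed against Empty in none without the replicate block. With it, *Il6* (adjusted p = 0.0047), *Lif* (adjusted p = 0.018) and *Osm* (adjusted p = 0.02) were lower in G-NHX9. *Csf1*, the macrophage growth factor, was higher in G-NHX9-midi (319 CPM ± 54.9 against 204 ± 20.3, SD, n = 5, log2 0.65, adjusted p = 0.00095) and lower in G-NHX9-21FGAA (133 CPM ± 23.3, log2 -0.62, adjusted p = 0.0031). *Kitl*, the gene for SCF, was higher in G-NHX9 (1.05 CPM ± 0.300 against 0.288 ± 0.105, SD, n = 5, log2 1.86, adjusted p = 0.0015). Without the block *Lif* and *Osm* passed against Empty in 0 of 6 constructs, and *Clcf1* was lower in 3 of 6 (log2 -0.73 to -0.90).

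Related receptor genes were lower more often than higher in G-NHX9, where 8 of 17 tested were lower and 1 higher (10 and 1 with the replicate block). Of those that averaged 5 CPM or more, the largest decreases were in *Il7r*, the IL-7 receptor chain (log2 -1.15, SE 0.24, adjusted p = 0.00032), *Il11ra1*, a partner of gp130 (log2 -0.99, SE 0.18, adjusted p = 7.9e-05), and *Kit*, the SCF receptor (log2 -0.88, SE 0.26, adjusted p = 0.0076). Below that level, *Il5ra*, the IL-5 receptor chain that pairs with the product of *Csf2rb*, was at 1.23 CPM in Empty and 0.406 in G-NHX9 (log2 -1.59, SE 0.37, adjusted p = 0.0012), and *Il27ra* was lower too (log2 -1.01, SE 0.25, adjusted p = 0.0021). The 1 that was higher was *Flt3*, the receptor for FLT3 ligand, at 0.187 CPM in Empty and 9.14 in G-NHX9 (log2 5.61, SE 0.32, adjusted p = 8.9e-15). The other constructs gave 5 lower and 1 higher for G-NHX9-8FA, 9 and 1 for G-NHX9-midi, 8 and 4 for G-NHX9-21FGAA, 2 and 3 for G-NHX9-midi-21FGAA and 4 and 3 for G-NHX9-DDNA (7 and 3 with the replicate block).

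Downstream of the receptors, JAK and STAT genes passed in both directions. Of 11, 1 was higher and 3 lower in G-NHX9 (2 and 3 with the replicate block, which added *Jak2*, adjusted p = 0.033), 1 and 1 in G-NHX9-8FA, 2 and 3 in G-NHX9-midi, 2 and 4 in G-NHX9-21FGAA, 0 and 2 in G-NHX9-midi-21FGAA, and 0 and 2 in G-NHX9-DDNA. *Stat5b* was lower in all 6 constructs, by log2 values from -0.28 to -0.36 (adjusted p from 0.00077 to 0.011). *Stat5a*, its neighbour and close copy, with which it may share reads, passed in none (adjusted p from 0.22 to 0.82). *Jak2*, the kinase carried by the beta chains and the erythropoietin receptor, was higher in G-NHX9-21FGAA (log2 0.36, SE 0.12, adjusted p = 0.024) and G-NHX9-midi (log2 0.33, SE 0.12, adjusted p = 0.028). In G-NHX9, *Stat4* was higher (log2 0.84, adjusted p = 9.5e-05) and *Stat6* (log2 -0.36, adjusted p = 0.0018) and *Jak1* (log2 -0.32, adjusted p = 0.0014) were lower.

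Among 12 genes for regulators of the pathway, most of them inhibitors, *Socs2*, a STAT5 target that restrains JAK signalling, had the smallest adjusted p in G-NHX9. It was higher than Empty in G-NHX9 (log2 1.26, SE 0.10, adjusted p = 8.1e-12), G-NHX9-midi (log2 0.75, SE 0.10, adjusted p = 1.8e-07) and G-NHX9-8FA (log2 0.28, SE 0.10, adjusted p = 0.028). In G-NHX9-21FGAA, G-NHX9-midi-21FGAA and G-NHX9-DDNA it did not pass (log2 0.17, 0.12 and 0.05), and each of the 4 constructs tested against G-NHX9 was below it (log2 -0.51 to -1.21). *Cish*, another STAT5 target, passed in 0 of the 11 comparisons (adjusted p from 0.57 to 0.97). Over all 12 genes, 1 was higher and 1 lower in G-NHX9, 2 and 1 in G-NHX9-8FA, 3 and 1 in G-NHX9-midi, 2 and 0 in G-NHX9-21FGAA, and 1 and 0 in both G-NHX9-midi-21FGAA (2 and 1 with the replicate block) and G-NHX9-DDNA.

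Of 15 adaptor and kinase genes that act after the receptors, 8 were lower and 1 higher in G-NHX9, led by *Gab1*, a docking protein (log2 -1.13, SE 0.19, adjusted p = 1.6e-05), and *Mapk3*, the kinase ERK1 (log2 -0.87, SE 0.13, adjusted p = 4.5e-06). The counts were 3 lower and 0 higher in G-NHX9-8FA, 7 and 1 in G-NHX9-midi, 6 and 0 in G-NHX9-21FGAA, 3 and 0 in G-NHX9-midi-21FGAA and 5 and 0 in G-NHX9-DDNA.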

How the data were processed

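The authors deposited raw read counts per gene, whole numbers without normalization, and per the labels' processing notes STAR 2.7.0d, HTSeq 0.11.2, DESeq2 and the build mm10 were used, with no roles given. Libraries were made with a stranded total RNA kit. The study's methods describe transduction in triplicate, whereas the labels give 5 libraries a condition. A column of the count table was matched to each of the 35 libraries by its title.

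The count model was that of edgeR 4.0.16 (R 4.3.3). Genes were filtered with filterByExpr (17166 kept, 99.96% of counts), libraries were scaled by TMM (factors 0.899 to 1.11), and a quasi-likelihood model with a mean per condition was fitted to all 35 libraries. Benjamini-Hochberg adjustment was over all genes of a comparison, with a threshold of 0.05. Total counts of 31559914 to 75810659 set the counting precision. Up to 3 counts are compatible with 0, for counting error only. On simulated data for G-NHX9 against Empty (15049 genes, 200 changed), 70% of the changes of 1 on the log2 scale and 96% of those of 2 were recovered, with 6 false calls. The simulation drew and fitted only the libraries of these conditions, without a shared effect of the replicate number. Its rates need not hold for the fit to all 35 libraries.

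The labels' numbers 1 to 5 were checked for pairing on deviations from condition means. All 5 pairs exceeded a correlation of 0.1 in 5 comparisons (G-NHX9, G-NHX9-midi-21FGAA and G-NHX9-DDNA against Empty, and G-NHX9-21FGAA and G-NHX9-DDNA against G-NHX9), where the replicate block applies, and its value is given where it changed the call of a receptor gene or of another difference printed here, or moved a printed count of a list by over 1.5 times. The fit without the block was kept throughout.

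The receptor genes and lists were chosen with earlier results of these data known. Named were the 8 receptor genes, up to 3 genes a list with the largest log2 fold change past the threshold in G-NHX9 against Empty and a mean of at least 5 CPM, ligand genes past the filter, *Jak2*, *Stat5a*, *Stat5b*, *Cish* and *Socs2*, and the 2 genes most like each receptor gene by Pearson r of log2 CPM (prior count 2). *Lyz2*, *Ctsg* and *Cd34* stand for their lists. *Tpsab1*, *Ccr3*, *Il5ra*, *Il27ra*, *Flt3* and the C1q genes were added after their values were seen. Alternatives were RLE factors, no scaling, no filter, a minimum mean of 1 CPM, the replicate block, a fit to the 2 conditions compared, DESeq2 1.42.0, and leaving out each library. Fits to replicates 1 to 3 and to replicates 4 and 5 were added after seeing the data. Annotation was from GENCODE M21, in which 99.3% of identifiers were found ignoring version, and upstream sequences were from RefSeq (GRCm38.p6).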

Additional observations from a re-analysis of the deposited data

Results flagged for a closer look

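In 2 of the 56 groups of 5 libraries tested over the 8 receptor genes, 1 library lay far from the other 4 by Dixon's criterion, which chance meets in about 1 in 20 groups. *Csf2rb2* in G-NHX9-midi had its highest library, replicate 5, at 254 CPM, where the other 4 had 61.2 to 116 CPM. *Il6ra* in G-NHX9 had its highest library, also replicate 5, at 31.3 CPM, where the other 4 had 24.3 to 25.7 CPM.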

How the results depend on the processing

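Of the 88 differences (8 receptor genes in 11 comparisons), 47 passed the threshold, 22 of these under every alternative and 25 not under 1 or more, and no sign of a passing difference turned. The 22 include *Epor* and *Csf3r* in G-NHX9-8FA and G-NHX9-midi against Empty and G-NHX9 and in G-NHX9-midi-21FGAA against G-NHX9-midi, *Csf2ra* and *Il6st* in G-NHX9 against Empty, and both beta chains in G-NHX9-midi-21FGAA against G-NHX9-midi. Of the 47, 13 were lost in replicates 1 to 3 only and 12 in replicates 4 and 5 only. The number of receptor genes that passed went from 6 to 2 for G-NHX9-21FGAA and from 6 to 3 for G-NHX9-midi-21FGAA against Empty in replicates 1 to 3 only. In replicates 4 and 5 only it went from 5 to 0 for G-NHX9-DDNA against Empty, from 3 to 5 for G-NHX9-midi and from 2 to 1 for G-NHX9-DDNA against G-NHX9. In the last, *Epor* and *Il3ra* were both lost (adjusted p = 0.13 and 0.84), and the 1 that passed was *Il6st* (log2 1.00, adjusted p = 0.0012). For G-NHX9-DDNA against Empty, replicates 4 and 5 gave log2 values of -0.50 for *Csf2ra*, -0.66 for *Csf3r*, -0.48 for *Il3ra* and -0.59 for *Il6ra*. In all libraries these were -0.54, -0.64, -0.54 and -0.60, while *Il6st* went from -0.65 to -0.35. Fits to part of the libraries have less power, and their shares over all genes are not given here. With no filter the number that passed went from 4 to 2 for G-NHX9-21FGAA against G-NHX9, and in a fit to the 2 conditions from 2 to 1 for G-NHX9-DDNA against G-NHX9. Causes were not tested. Leaving out 1 library gave 3 to 7 for G-NHX9-midi (3 without its replicate 2) and 3 to 5 for G-NHX9-DDNA (3 without Empty replicate 2 or its own replicate 2 or 3) against Empty. Against G-NHX9 it gave 3 to 5 for G-NHX9-midi (5 without its replicate 5), 2 to 4 for G-NHX9-21FGAA (2 without its replicate 2) and 1 to 2 for G-NHX9-DDNA (1 without replicate 3 of either). RLE factors, DESeq2 and the filter at 1 CPM each added 1 call and lost 0. Without scaling, the median of all genes moved to between -0.12 and 0.19, 6 calls were lost and 1 was gained. With the replicate block 9 calls were gained and 0 lost, and the count for G-NHX9-midi against G-NHX9 was 5. Some gains fell in comparisons where not all 5 pairs of libraries exceeded the correlation limit of 0.1. In G-NHX9-8FA against Empty they were *Csf2rb* (log2 -0.28, adjusted p = 0.03) and *Csf2rb2* (log2 -1.03, adjusted p = 0.00046). In G-NHX9-midi against G-NHX9 they were *Csf2rb* (log2 -0.42, adjusted p = 0.0024) and *Csf2rb2* (log2 -0.94, adjusted p = 0.0015). In G-NHX9-midi-21FGAA against G-NHX9-midi the gain was *Csf2ra* (log2 -0.23, adjusted p = 0.044). Libraries of the same number still had mean correlations of 0.174 to 0.201 there, against -0.0431 to -0.0485 for other numbers. Missing the limit therefore does not show that the number was without effect in these comparisons. *Epor* in G-NHX9-midi had the lowest counts of the group, and depth limits its precision there.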
